A study of Mus musculus with 2 samples.

Results

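Scavenger receptors are surface and endosomal proteins with which macrophages bind and take up modified lipoproteins, bacteria, dying cells and other altered ligands, and 10 genes of the group were read here in mouse bone marrow-derived macrophages (BMDMs) with and without IL-4. The genes were chosen by name, with earlier results of these data known. They are Msr1, Marco and Colec12 of class A, Scarb1 and Scarb2 of class B, Cd68, Olr1, Stab1, Cd163, and the secreted Cd5l. Probes were assigned to them through the RefSeq accession that the array gives for each probe. By this rule 9 of the 10 genes had a probe, 11 probes in all, among 20656 genes that could be named on the array. The BMDMs were grown with M-CSF from the bone marrow of male mice aged 8 weeks, of the genotype Crif1 f/f (floxed Crif1 alleles), which both conditions shared. Cells were either left untreated or given IL-4 for 18 h, and the IL-4 dose used for the arrays is not given in the sources used here. Total RNA was labelled with Cy3 and each condition was hybridised to 1 single-colour Agilent array, so there was no replicate and no test between conditions could be run. Whether RNA of several mice was pooled, or whether both cultures came from the same mouse, is not given in the sources used here.

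The receptors in this group are not 1 gene family. They differ in fold, with collagen-like stalks in class A, CD36-like loops in class B, a C-type lectin domain in Olr1, fasciclin and EGF-like domains in Stab1, and scavenger receptor cysteine-rich domains in Cd163 and Cd5l, and they are grouped by their ability to bind polyanionic or oxidised ligands. In macrophages they serve clearance: lipoprotein uptake that can fill the cell with cholesterol, removal of bacteria and apoptotic cells, and capture of hemoglobin. IL-4 acts on macrophages through STAT6 and drives the M2-like state, of which some endocytic receptors, Mrc1 (CD206) above all, are standard markers.

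The value of a probe is the background-subtracted intensity of its spot, in arbitrary units set by the scanner, and comparisons between the arrays used log2 intensity minus the 75th percentile of each array, which was 9.84 for untreated and 9.94 for IL-4-treated BMDMs. A log2 difference is IL-4 minus untreated throughout, and a gene with 2 probes was read from the brighter one. The scanner software flagged 59.8% of untreated and 57.4% of IL-4 gene spots as well above background, a gene with that flag in both conditions is said to be read on both arrays, and a gene with it in 1 condition was given as a bound. A difference stands beside a pair of errors. The spot SD comes from probes printed in 10 spots whose signal was similar, and the software's own error was about 10% of a bright intensity on each array, which is 0.20 on a log2 difference. Neither error covers the spread between cultures, and fewer expressing cells cannot be told apart from less RNA per cell in such samples. The labelled treatment was seen in Arg1, at 84.9 in untreated and 19688 in IL-4-treated BMDMs, in Mrc1, at 6494 and 37112, in Chil3, at 4511 and 68526, and in Retnla, at 6.99, not well above background, and 18633.

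Of the 9 scavenger receptors with a probe, 7 were read on both arrays, 1 was well above background after IL-4 only and 1 in neither condition. All 7 of the first kind had a lower scaled signal after IL-4, with log2 differences from -0.80 to -0.08 and a median of -0.36, although 3 of the 7 changed sign when the arrays were scaled on their medians or on spike-in controls. Among the 12744 genes read on both arrays the median was -0.01, and 52.3% lay below 0. The spot SD was exceeded more than 2-fold by 6 of the 7 differences, the exception being Marco, and the software's error by 5 of the 7, the exceptions being Marco and Colec12. Over all genes read on both arrays the quartiles were -0.19 and 0.15, so a large part of them also lay past 2 spot SDs of this size. The share of all genes past either error was not counted, so these counts do not set the receptors apart. At a cutoff of 2-fold, 1 of 8 scavenger receptors was higher, Olr1, against 431 of 14053 genes, or 3.07%. None, 0 of 8, was at least 2-fold lower, against 472 of 14053 genes, or 3.36%.

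**Figure D1:**
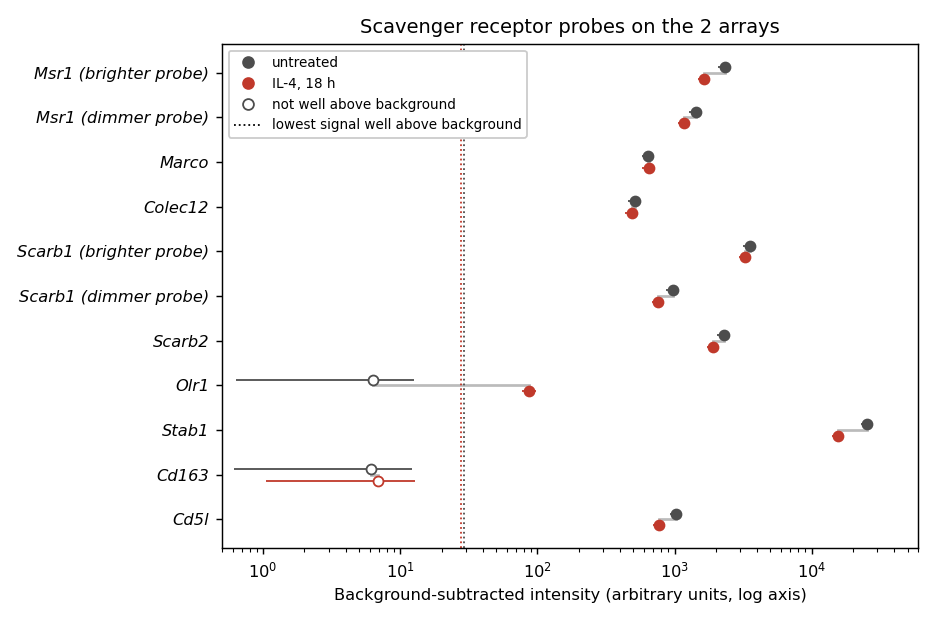
Background-subtracted intensity (log axis, arbitrary units) of the 11 scavenger receptor probes without (grey) and with IL-4 (red). Bars are the error given by the scanner software, open circles are spots not well above background, and dotted lines mark the lowest signal well above background on each array. Olr1 crosses that line, from 6.35 to 87.3, Cd163 stays below it on both arrays, and Stab1 shows the widest gap among the filled pairs; intensities here are not scaled between arrays and should not be compared between probes.

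Msr1 encodes scavenger receptor A, a trimeric receptor for acetylated and oxidised LDL and for bacterial surfaces. Its brighter probe read 2321 in untreated and 1645 in IL-4-treated BMDMs, and its dimmer probe read 1421 and 1174. Both probes were lower after IL-4. The log2 difference was -0.60 for the brighter probe (spot SD 0.055) and -0.38 for the dimmer one (spot SD 0.058), so the 2 probes differed from each other by 0.22, several times the spot SD. The brighter probe corresponds to a 1.51-fold lower signal and to 2.92 times the software's error. Among all genes on both arrays 5.10% had a difference as low, and among the 3436 genes of similar signal 2.74% had. Over the 6 other scalings the brighter probe lay between -0.65 and -0.29, and with spike-in scaling the dimmer one was at -0.067.

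Marco, the class A receptor with a long collagenous stalk that binds bacteria and inhaled particles, read 641 in untreated and 648 in IL-4-treated BMDMs. After scaling, its log2 difference was -0.08 (spot SD 0.061), which lies within the software's error and under 2 times the spot SD. Of all genes on both arrays 38.1% were as low or lower, so Marco sat in the middle of the array. Colec12, a class A-like receptor that carries a C-type lectin domain and is known mainly from endothelium, read 511 and 487. Its log2 difference of -0.17 (spot SD 0.061) was inside the software's error, and 26.8% of genes were as low. The sign of both differences turned with other scalings, to 0.13 for Marco and 0.04 for Colec12 with median scaling and to 0.23 and 0.14 with spike-in scaling. Marco also moved to 0.02 with no scaling.

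Scarb1 encodes SR-BI, which mediates selective uptake of cholesteryl ester from HDL and exchange of free cholesterol. Its brighter probe read 3524 in untreated and 3262 in IL-4-treated BMDMs, and its dimmer probe 968 and 761. The log2 differences were -0.21 (spot SD 0.052) and -0.45 (spot SD 0.061), a gap of 0.24 between 2 probes for the same gene. The dimmer probe stayed lower under median and spike-in scaling, at -0.23 and -0.14, while the brighter one moved to 0.003 and 0.098, so the size and, for the brighter probe, the sign of the Scarb1 difference depend on probe and scaling. Genes that export cholesterol differed in sign. Abca1, which loads lipid-poor apolipoprotein, had a log2 difference of -0.54, and Abcg1, which exports cholesterol to HDL, one of 0.97. Neither Apoa1 nor Pdzk1, the SR-BI adaptor, was well above background in either condition.

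Scarb2 encodes LIMP-2, a lysosomal membrane protein that also carries cargo from the endoplasmic reticulum to the lysosome. It read 2282 in untreated and 1905 in IL-4-treated BMDMs. The log2 difference was -0.36 (spot SD 0.055), a 1.28-fold lower signal, and 12.4% of genes were as low. It stayed below 0 in all 6 other scalings of the intensities, down to a size of -0.05 with spike-in scaling. The other lysosomal membrane genes on the list, Lamp1 and Lamp2, had -0.15 and -0.05, with -0.22 at the other probe of Lamp2. Cd68, the class D receptor of late endosomes that is often used to stain macrophages, has 2 RefSeq accessions in the table used for names, and no probe carried either, so Cd68 was not analysed here.

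Olr1 encodes LOX-1, the lectin-like receptor for oxidised LDL, and it was the member with a higher signal after IL-4. It read 6.35 in untreated BMDMs, which was not well above background, and 87.3 after IL-4, which was. Before background subtraction its spot read 62 and 159, where the 153 negative control spots had a median of 57 on each array and reached no more than 82 and 80.5. The untreated spot lay above 124 of the 153 negative controls and the IL-4 spot above all 153. Against the lowest intensity well above background on the untreated array, 29.2, Olr1 was at least 2.79-fold higher after IL-4, a bound of 1.48 on the log2 scale that lay between 1.42 and 1.85 over the 6 other scalings. As high a difference or bound was found for 1.30% of 14053 genes. The value rests on 1 spot per array, at a signal where the software's error was 12.2% of the IL-4 intensity and nearly the whole of the untreated one. Spike-in RNA of low signal differed between the arrays in the other direction: a control probe with log2 intensity 5.23 on the untreated array had a scaled difference of -2.52, and one at 6.75 had -0.72.

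The promoter of Olr1 is shown because it is the receptor with the higher signal, and those of Stab1 and Cd5l because they are, of the receptors with a window in the RefSeq table, the ones with the largest lower differences. Each window runs from 250 bases before to 50 bases after the annotated start (RefSeq, GRCm38.p6), 5′ to 3′ on the strand of the gene. Capitals mark GAGGAA, the letters bound by the myeloid factor PU.1, on either strand (TTCCTC on the reverse), and the pair TTC and GAA separated by 4 bases, the spacing preferred by STAT6. The Olr1 window is chr6:129507116-129507415 on the minus strand, that of Stab1 is chr14:31168592-31168891 on the minus strand, and that of Cd5l is chr3:87357631-87357930 on the plus strand.
Olr1: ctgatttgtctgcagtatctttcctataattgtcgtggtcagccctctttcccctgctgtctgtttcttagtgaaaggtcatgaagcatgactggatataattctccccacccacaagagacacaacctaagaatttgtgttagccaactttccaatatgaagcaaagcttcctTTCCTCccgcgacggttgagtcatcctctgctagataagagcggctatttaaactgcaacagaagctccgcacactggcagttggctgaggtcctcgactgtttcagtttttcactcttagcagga
Stab1: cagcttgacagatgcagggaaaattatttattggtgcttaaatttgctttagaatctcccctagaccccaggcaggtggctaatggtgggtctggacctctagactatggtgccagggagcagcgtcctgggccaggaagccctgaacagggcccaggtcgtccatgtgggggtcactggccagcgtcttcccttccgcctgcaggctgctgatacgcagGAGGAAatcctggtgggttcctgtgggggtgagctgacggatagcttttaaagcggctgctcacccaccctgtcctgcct
Cd5l: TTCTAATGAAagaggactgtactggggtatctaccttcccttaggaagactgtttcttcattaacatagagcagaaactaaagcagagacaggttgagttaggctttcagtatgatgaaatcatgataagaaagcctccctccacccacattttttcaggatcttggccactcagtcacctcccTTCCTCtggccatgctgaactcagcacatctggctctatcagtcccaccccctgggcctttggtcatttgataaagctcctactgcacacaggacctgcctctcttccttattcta
The 3 windows share the PU.1 letters and differ in the STAT6 letters. GAGGAA lay at -76 to -71 from the start on the minus strand in Olr1, at -30 to -25 on the plus strand in Stab1 and at -66 to -61 on the minus strand in Cd5l, and Marco held it too, at -146 to -141 on the plus strand. That makes 4 of the 6 scavenger receptors with a probe and a window, where 28.3% of all 32851 windows held these letters. TTC and GAA separated by 4 bases occurred in Cd5l alone of the 6, at -250 to -241, and in 6.95% of all windows. With a spacing of 3 bases the pair was in 0 of the 6 and in 8.30% of all windows. Neither of the STAT6 spacings was found in the 300 bases of Olr1. Windows were given for Marco, Scarb2, Cd163, Olr1, Stab1 and Cd5l, and a match to letters does not show that a factor binds there.

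**Figure D2:**
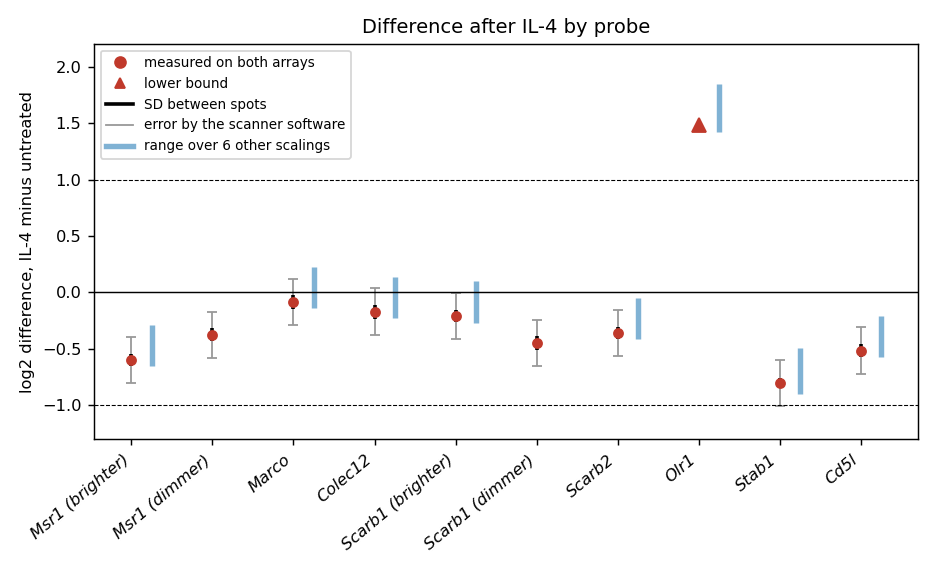
Scaled log2 difference (IL-4 minus untreated) of each probe that was well above background on at least 1 array. Black bars are the SD between spots, thin grey bars the scanner software's error, blue bars the range over 6 other scalings for the brighter probe of each gene, and dashed lines 2-fold. Stab1, Msr1, Cd5l and Scarb2 keep all of their blue range below 0, the ranges of Marco, Colec12 and Scarb1 cross 0, and Olr1 is a lower bound at 1.48.

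Stab1 had the lowest difference of the members. It encodes stabilin-1, an endocytic and recycling receptor of macrophages and sinusoidal endothelium that clears acetylated LDL, the matrix protein SPARC and placental lactogen and sorts the chitinase-like protein SI-CLP (Chid1) to lysosomes. It read 25508 in untreated and 15670 in IL-4-treated BMDMs. The log2 difference was -0.80 (spot SD 0.045), a 1.74-fold lower signal and 3.93 times the software's error, and it fell short of the 2-fold cutoff. Of all genes 2.68% were as low, and 0.722% of the 1108 genes of similar signal. Over the 6 other scalings it lay between -0.90 and -0.49. The genes of its ligands had smaller differences, -0.06 for Sparc (0.03 at its other probe) and -0.27 for Chid1. Stab2, the related receptor known from liver endothelium, read 177 and 196, a log2 difference of 0.05 (spot SD 0.10).

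Cd163, the hemoglobin-haptoglobin receptor, was not read on either array. Its spot read 6.13 in untreated and 6.91 in IL-4-treated BMDMs after background subtraction, and 69 and 77 before it, and neither spot was well above background. The readings before subtraction lay above 142 and 149 of the 153 negative controls. Cd163 has no fold here because neither spot was flagged well above background. The genes downstream of hemoglobin uptake were measured. Hmox1, which opens the heme ring, read 11790 and 8023, a log2 difference of -0.65 (-0.83 at its other probe), and Blvrb, which reduces biliverdin, had -0.37. Hp, which encodes haptoglobin, had 0.04, and Tnfsf12, which encodes the CD163 ligand TWEAK, had -0.11 (-0.35 at its other probe). The related Cd163l1 was well above background after IL-4 only, at 52.1 against 8.28, a bound of 0.74 on the log2 scale.

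Cd5l encodes AIM, a secreted protein with scavenger receptor cysteine-rich domains that macrophages release, that protects them from apoptosis and that is taken up through CD36 to inhibit fatty acid synthase. It read 1024 in untreated and 769 in IL-4-treated BMDMs. The log2 difference was -0.51 (spot SD 0.060), a 1.43-fold lower signal and 2.51 times the software's error. Of all genes 6.89% were as low, and 4.99% of the 3446 of similar signal. It lay between -0.57 and -0.20 over the 6 other scalings. Cd36 itself read 6537 and 8860, a log2 difference of 0.34, and Fasn, the synthase, had -0.22.

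**Figure D3:**
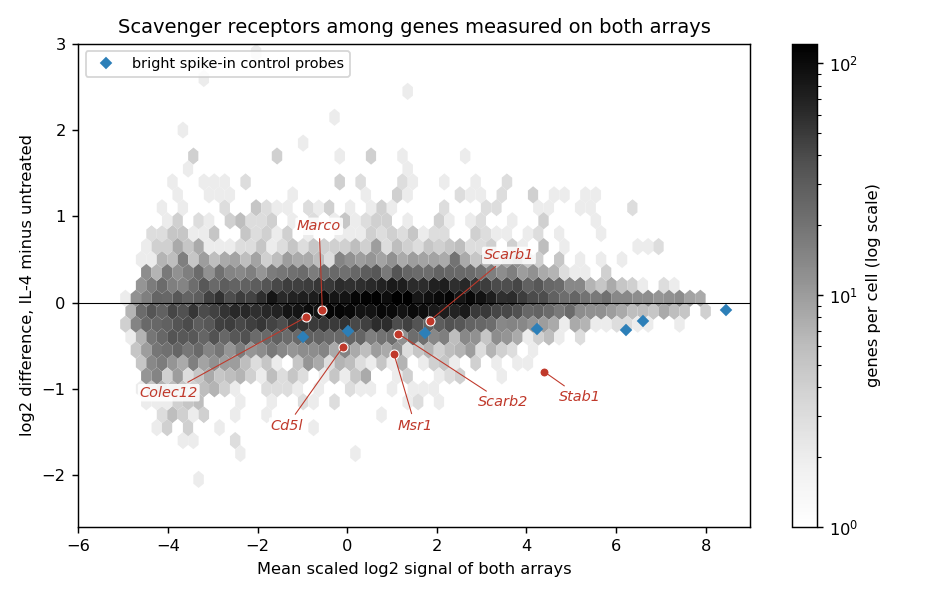
Scaled log2 difference against mean scaled log2 signal of both arrays for the 12744 genes read on both, with the number of genes per cell in grey (17 genes lie beyond the vertical axis). Red points are the 7 scavenger receptors read on both arrays and blue diamonds the 7 bright spike-in control probes. Stab1 lies at the lower edge of genes of its signal, Msr1 and Cd5l in the lower part, and Marco and Colec12 within the main band; the diamonds lie at -0.40 to -0.08, and scaling on them or on the array medians puts Marco, Colec12 and Scarb1 above 0.

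The level to which the arrays are scaled bears on every sign near 0. Over all genes read on both arrays the median was -0.01 with the 75th percentile, 0.20 with median scaling and 0.30 with scaling on the 7 bright spike-in probes, whose differences had a median of -0.32. Among genes past 2-fold, higher genes made up 47.7%, against 67.7% with median scaling, 65.0% with quantile normalization, 59.7% with cyclic loess, 57.8% without scaling, 74.7% with spike-in scaling and 42.2% where the 75th percentile was taken over probes flagged well above background in both conditions. Relative to the median of all genes, Stab1 lay at -0.79, Msr1 at -0.58, Cd5l at -0.50, Scarb2 at -0.35, Scarb1 at -0.20, Colec12 at -0.16 and Marco at -0.07. Scalings that add a constant to every gene of an array cannot change these places, which leaves quantile normalization and cyclic loess, and with these all 7 were again below the median of all genes, with Stab1 moving most, to -0.88. In absolute terms, 4 of 7 were below 0 with median and with spike-in scaling and 6 of 7 with no scaling.

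Other receptors that are classed as scavenger receptors, or that share their domains, numbered 22, of which 20 had a probe and 14 were read on both arrays. At least 2-fold higher were 2 of the 17 with a difference or bound, and 2 of the 17 were at least 2-fold lower, against 3.07% and 3.36% of all genes. With quantile normalization or spike-in scaling these counts were 3 and 1. The counts over all genes moved too, to 571 higher and 308 lower of 13949 with quantile normalization. With spike-in scaling they were 743 and 251 of 14038. The higher ones were Mrc1, the mannose receptor, with a log2 difference of 2.42, and Asgr1, a subunit of the asialoglycoprotein receptor, which read 57.4 and 215, a difference of 1.81 (spot SD 0.16). The lower ones were Cd5, a lymphocyte receptor with the same domains as Cd5l, which read 161 and 35.5, a difference of -2.28 (spot SD 0.18), and Scara5, a ferritin receptor, which read 60.8 and, not well above background, 8.93, at least 2.34-fold lower. Asgr1 and Scara5 have 2 probes each, and the other probe of each gave neither a difference nor a bound. Cd5 and Scara5 lie in the range of signals where the spike-in probes were lower on the IL-4 array, and the part of this in their values was not tested. The median of the 14 was -0.18, and it changed sign to 0.03 with median scaling and 0.13 with spike-in scaling. Within class B, Cd36 had 0.34 where Scarb2 had -0.36, and among the large endocytic receptors Lrp1, which read 22265 and 16833, had -0.50 where Mrc1 had 2.42. Of the membrane-bound chemokine Cxcl16, which also binds oxidised LDL, the difference was -0.24, and Cd44, a receptor for hyaluronan, had 0.65, with 0.22 to 0.59 at its other probes.

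The partners, ligands and sheddases of the members were counted in the same way. Of 20 such genes with a probe, 18 were read on both arrays. In either direction 0 of the 18 passed 2-fold, against 3.07% of all genes higher and 3.36% lower. A list of this size is too short to tell 0 from these shares. The median was -0.10, which became 0.11 with median scaling and 0.21 with spike-in scaling. With either of these, 1 gene was at least 2-fold higher, and the gene with the highest difference was Abcg1. Of all genes, 628 of 14067 were at least 2-fold higher with median scaling and 743 of 14038 with spike-in scaling. Adam10 and Adam17, proteases that shed receptors of this kind from the cell surface, had log2 differences of 0.08 and 0.17, with 0.45 at the other probe of Adam17. Apoe, a ligand of several lipoprotein receptors, read 289929 and 291521, a difference of -0.09.

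**Figure D4:**
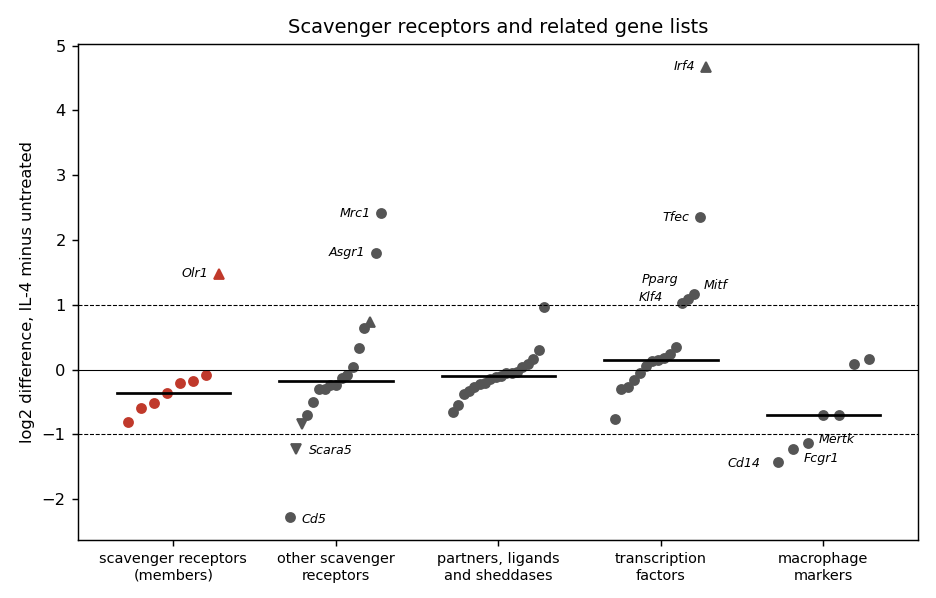
Scaled log2 difference (IL-4 minus untreated) of the scavenger receptors (red) and of 4 related gene lists, with 1 point per gene well above background on at least 1 array, in order of size within a list. Triangles are bounds, thick lines the median of genes read on both arrays, and dashed lines 2-fold. The median was -0.36 for the scavenger receptors, -0.18 for other scavenger receptors, -0.10 for partners, 0.15 for transcription factors and -0.71 for macrophage markers; with median or spike-in scaling those of the other receptors and the partners lie above 0.

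Transcription factors known to act on such genes were counted beside them. Like the members, these factors were chosen with earlier results of these data known. Their count beside all genes is therefore a description and not an independent result, and their action on the members was not tested. All 16 had a probe and 15 were read on both arrays, with a median of 0.15. At least 2-fold higher were 5 of the 16: Irf4 by a bound of 4.68, Tfec by 2.35, Mitf by 1.17 (0.98 at its other probe), Pparg by 1.09 and Klf4 by 1.03 on the log2 scale, and 0 were at least 2-fold lower, where 3.07% of all genes were higher and 3.36% lower. Pparg, whose product acts on Cd36, and Maf, a factor of macrophage differentiation, differed in sign, with Maf at -0.75. Spi1, which encodes PU.1, had 0.23, and Nr1h3, which encodes the LXRα that acts on Cd5l, -0.05. Stat6 had -0.29 at its brightest probe.

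The label of the cells was checked against markers. All 7 macrophage markers were read on both arrays, with summed intensities of 296935 in untreated and 273913 in IL-4-treated BMDMs. Adgre1 (F4/80) read 23816 and 28655 and Csf1r 146026 and 166510. After IL-4 3 of the 7 were at least 2-fold lower, with log2 differences of -1.42 for Cd14, -1.23 for Fcgr1 and -1.14 for Mertk, against 3.36% of all genes, and with spike-in scaling 1 of 7, against 251 of 14038 genes. The direction seen in Stab1 and Msr1 was shared by part of the macrophage markers, whose median of -0.71 was lower than that of the scavenger receptors. Some receptors are also made by other cells, so their markers stand here. Of 5 endothelial markers 3 were read on both arrays, with summed intensities of 2748 and 3179, while Lyve1 and Tek were not well above background in either condition. All 5 fibroblast or stromal markers were read on both arrays, with sums of 324009 and 317060 and Col1a2 at 233342 and 234332. These sums lay above those of the macrophage markers on both arrays. Sums add unscaled intensities of different probes, so they do not give shares of cells. Of 5 markers of liver or serous cavity macrophages, which carry Cd163, Marco or Cd5l in the body, 3 were read on both arrays, with sums over the list of 837 and 885, and Timd4 on neither. Only Cd3e of 5 lymphocyte markers was above background, at 343 and 296. All 4 neutrophil markers with a probe were read on both arrays, with sums of 34677 and 34325, as were 2 of 5 dendritic cell markers, with sums over the list of 29163 and 31733, nearly all of it Siglech, and 2 of 5 eosinophil or mast cell markers, with sums of 957 and 948. The mast cell protease Cpa3 of the last list read 91.2 and, not well above background, 6.37, at least 3.51-fold lower. Cpa3 too lies in the range of signals where the spike-in probes were lower on the IL-4 array. The part of this in its value was not tested. The part of other cells in the scavenger receptor values was not tested.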

How the data were processed

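RNA of untreated and IL-4-treated BMDMs (500 ng each) was labelled with Cy3 and hybridised to 1 Agilent array per condition. As deposited, each spot has a background-subtracted intensity in arbitrary units that the authors took from Feature Extraction 10.10.1.1 and did not scale between arrays, with flags for outliers and for signals well above background. A further deposited table holds log2 values processed by the authors, whose column medians were 0.16 and 0.016. For the 11 member probes the difference between its columns was within 0.000565 of the log2 difference of the scanner intensity after scaling to the 75th percentile. Its scale and direction follow from that, and how its rows were centred is not known, so its levels were not used.

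After control spots and outlier flags were dropped, the log2 intensity was averaged per probe and centred on the 75th percentile of its array. A probe was well above background when most of its spots were flagged so. Where this held on 1 array, the other array was given the higher of its own signal and its lowest signal well above background, and where it held on neither, no fold was given. Probes were named by RefSeq accession with a GRCm38.p6 table, by which 27229 of 39424 probes were named, because the array design was annotated on mm9. That table was used for names, and promoter windows are on GRCm38.p6. Genes past 2-fold were counted with no test. Similar signal means within 1 log2 unit. All members are named, with the genes of the other lists that differed by at least 1 on the log2 scale, up to 5 per list and direction, and the genes paired with a member. The members and the lists were chosen with earlier results of these data known. Some genes of these lists are counted and not reported here by name. Counting past the cutoff was tested on simulated data with changes well past the cutoff, planted in bright probes only. That test did not cover dim probes or bounds such as that of Olr1. The number of arrays limits the precision. Alternatives were other scalings (median, 75th percentile over probes well above background, quantile, cyclic loess, none, spike-in), normexp with an offset of 50, other rules for dim and multiple probes, flagged spots kept, the authors' log2 values, and cutoffs of 1.5-fold and 4-fold. The tools were R 4.3.3 with limma 3.58.1 and Python 3.11.15 with pandas 2.3.3 and numpy 2.4.6.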

Additional observations from a re-analysis of the deposited data

How the results depend on the processing

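With 1 array per condition, neither a paired nor an unpaired test was possible, and whether both cultures came from the same mouse is not given. The median log2 difference of the 7 scavenger receptors, -0.36, was -0.15 with median scaling, -0.26 with no scaling, -0.051 with spike-in scaling and -0.46 with normexp, and moved by less than the median spot SD of these genes with the other alternatives. The 1 receptor at least 2-fold higher, Olr1, became 0 at a 4-fold cutoff and, by construction, where only genes read on both arrays were kept. The 0 at least 2-fold lower became 2 of 8 at a 1.5-fold cutoff, Msr1 and Stab1, where 1259 of 14053 genes were lower. Msr1 passed that cutoff at its brighter probe only, and its dimmer probe, at -0.38, did not. The bound of 1.48 for Olr1 was 1.18 with normexp, and its measured difference without a bound was 3.68. Msr1, Scarb2, Stab1 and Cd5l kept their sign in all 13 settings in which they have a value. Olr1 was higher in all 12 of its settings. Where Olr1 was given as a bound, its sign was fixed in advance, because a bound at or below 0 would have been dropped.

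Over all genes, 431 at least 2-fold higher became 743 with spike-in scaling, 272 with normexp, 881 with no filter on dim probes, 883 with the authors' processed values, 895 at 1.5-fold and 92 at 4-fold. The 472 at least 2-fold lower became 299 with median scaling, 308 with quantile normalization, 251 with spike-in scaling, 90 with normexp, 184 with genes read on both arrays only, 2077 with no filter, 2076 with the authors' processed values, 1259 at 1.5-fold and 47 at 4-fold. Higher genes were 75.1% of those past 2-fold with normexp and 29.8% with no filter. Filters and cutoffs change these counts by construction, and for the scalings and normexp the cause was not tested. Signals near background limit Olr1 and Cd163, and 1 array per condition limits every value.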
